A study of Homo sapiens with 4 samples.

Results

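Epithelial-mesenchymal transition (EMT) was examined through 10 genes, chosen by name as standard markers and transcription factors of the process, out of 47251 genes listed in the gene table. They comprised the epithelial markers CDH1 and EPCAM, the mesenchymal markers CDH2, VIM and FN1, and the transcription factors SNAI1, SNAI2, ZEB1, ZEB2 and TWIST1. RNA was sequenced from AGS, a line derived from a human gastric adenocarcinoma. The cells had been infected with lentivirus and selected with puromycin, and 2 libraries came from cells with an shRNA against MFAP2 (genotype label: MFAP2 silencing) and 2 from cells with sh-control, a scrambled shRNA. An shRNA is a hairpin RNA that the cell processes into a small RNA against the chosen mRNA, and MFAP2 encodes a protein of the elastic microfibrils of the extracellular matrix. By their titles both sh-MFAP2 libraries carry the same shRNA (sh1), but the description of replicate 2 reads sh2, so that the 2 could also differ in their shRNA, and their spread and n = 2 are to be read with that limit. The study describes a stably infected line, and the labels do not say whether replicates were separate cultures, so that every p-value below measures only the spread between these samples, which may be technical.

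In EMT, epithelial cells loosen their junctions, lose apical-basal polarity and take on the spindle shape and motility of mesenchymal cells. SNAI, ZEB and TWIST proteins bind E-box sequences, and those of the SNAI and ZEB families repress CDH1, the gene of the adherens junction protein E-cadherin. Intermediate states in which markers of both kinds are present are common in carcinoma lines, and AGS is known for having little E-cadherin at the cell surface.

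Levels are given in FPKM, that is, fragments scaled by gene length and by the size of the library, so that genes can be set side by side, but only roughly. The implied gene length exceeded that of the main transcript unevenly (VIM 3500 against 1868 bases, CDH1 6177 against 4889, SNAI1 1686 in both). For FN1 it was 17315 bases, whereas the longest of its detected transcripts had 9171. Orders, shares and ratios of different genes carry this limit, whereas a comparison of libraries for 1 gene does not. No read counts were used, but the steps between low values implied a depth of about 60900000 reads in sh-MFAP2 replicate 1, 54700000 in sh-MFAP2 replicate 2, 59100000 in control replicate 1 and 74800000 in control replicate 2. MFAP2 itself was at 0 in the pair of sh-MFAP2 libraries and at 0.0116 FPKM in control replicate 1 and 0.0138 in control replicate 2, which corresponds to 2.0 and 3.0 implied reads and could not serve to check the labels. Epithelial keratins were abundant in every library (KRT8 690 to 803 FPKM, KRT18 501 to 774, KRT19 217 to 303). Markers of fibroblasts other than COL1A1 (COL1A2, COL3A1, DCN, LUM, PDGFRB and THY1) were at 0.0656 FPKM or lower, and the 3 endothelial markers PECAM1, VWF and CDH5 summed to between 0.0122 and 0.0380 FPKM. In bulk RNA, fewer cells with a transcript and less of it per cell cannot be told apart.

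Among the 10 genes, the AGS libraries held one epithelial marker at a very high level, the other near 1 FPKM, and the mesenchymal markers from low to barely detectable. Of the mesenchymal markers outside the 10, S100A4, TAGLN and CALD1 were above VIM in every library, whereas most were near 0. Of the 10 genes, 7 were above 0 and 3 (SNAI2, ZEB2 and TWIST1) were listed at 0 in all 4 libraries. By mean level the order was EPCAM, SNAI1, VIM, CDH1, ZEB1, CDH2 and FN1. In 5 of the 6 neighbouring pairs of this order the lowest library of the upper gene lay above the highest library of the lower gene. The exception was ZEB1 and CDH2, whose means differed by a ratio of 1.04 and whose libraries overlapped. EPCAM exceeded SNAI1 by a ratio of means of 24.3, and CDH1 exceeded ZEB1 by 12.5, which are the 2 largest steps of the order.

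**Figure D1:**
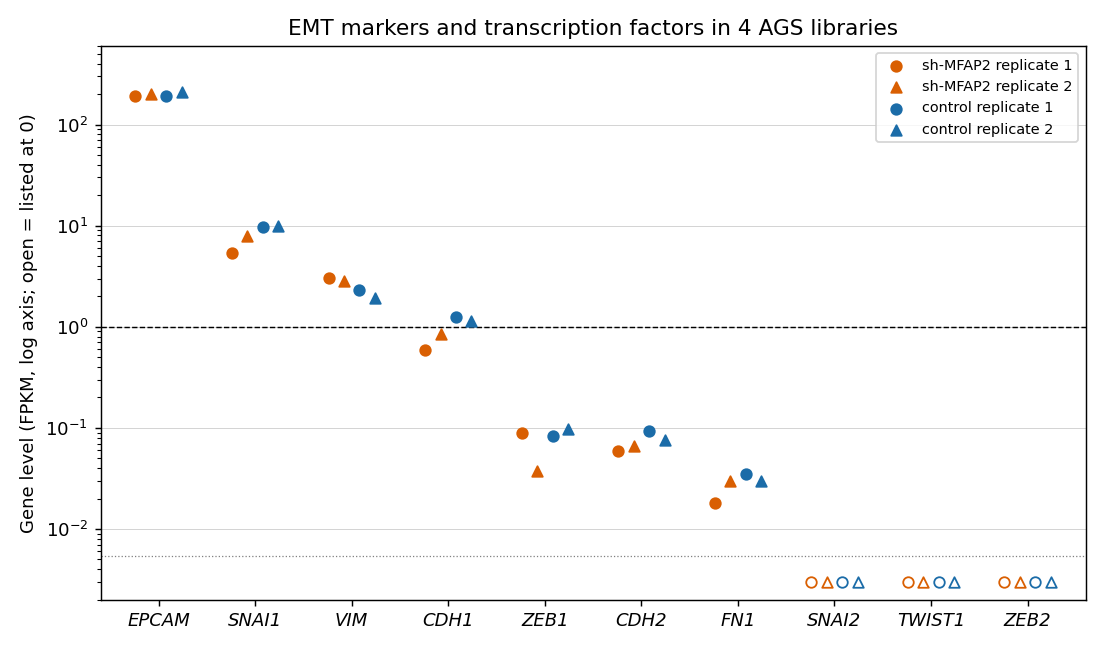
Level of each of the 10 EMT genes in FPKM (log axis) in each library, with sh-MFAP2 in orange, controls in blue, circles for replicate 1 and triangles for replicate 2; open symbols under the dotted line are genes listed at 0, and the dashed line marks 1 FPKM. EPCAM sits near 200 FPKM in all 4 libraries, SNAI1, VIM and CDH1 lie between 0.584 and 9.89 FPKM, and ZEB1, CDH2 and FN1 are at 0.0974 FPKM or lower.

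EPCAM, an epithelial surface glycoprotein that mediates adhesion between like cells, was the most abundant of the genes and was nearly level across libraries. It maps to the plus strand of chromosome 2 of GRCh38 (47345158 to 47387601). Its level was 194 FPKM in sh-MFAP2 replicate 1, 201 in sh-MFAP2 replicate 2, 193 in control replicate 1 and 210 in control replicate 2, so that the groups overlapped. The means were 197 ± 4.81 FPKM (SD, n = 2) with sh-MFAP2 and 202 ± 12.4 FPKM (SD, n = 2) in the controls. The log2 fold change was -0.03 with an SE of 0.113 (limma, Benjamini-Hochberg adjusted p = 0.918). Among the genes above 0 in a library, EPCAM ranked between 109 and 134, within the top 0.669%. A single protein-coding transcript, ENST00000263735 of 1724 bases, took 99.7% to 99.8% of its signal.

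CDH1, the gene of E-cadherin, was far below EPCAM and lower in both sh-MFAP2 libraries than in both controls. It maps to the plus strand of chromosome 16 (68737225 to 68835548). CDH1 was at 0.584 FPKM in sh-MFAP2 replicate 1, 0.853 in sh-MFAP2 replicate 2, 1.25 in control replicate 1 and 1.15 in control replicate 2. The groups did not overlap, and sh-MFAP2 replicate 1 was the lowest library. Means were 0.718 ± 0.190 FPKM (SD, n = 2) with sh-MFAP2 and 1.20 ± 0.0753 FPKM (SD, n = 2) in the controls, a ratio of 0.599. With each library left out in turn this ratio ran from 0.487 to 0.711. Its mean over the 4 libraries, 0.959 FPKM, lay just under the minimum of 1 FPKM set for testing, with the sh-MFAP2 mean below that minimum and the control mean above it. In the fit without that minimum the log2 fold change was -0.36 with an SE of 0.139 (limma, Benjamini-Hochberg adjusted p = 0.582), which did not pass the test. The values rest on 219.7 and 288.1 implied reads with sh-MFAP2 and on 457.2 and 529.5 in the controls.

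Most CDH1 signal came from one full-length coding transcript in every library. ENST00000261769, of 4889 bases, took 95.8% to 99.4% of it. This transcript stood at 0.720 FPKM in sh-MFAP2 replicate 1, 1.03 in sh-MFAP2 replicate 2, 1.56 in control replicate 1 and 1.44 in control replicate 2, again without overlap. Its log2 fold change in the fit over 22312 transcripts was -0.42 (limma, Benjamini-Hochberg adjusted p = 0.694). Of 11 CDH1 transcripts listed, 8 were above 0 in some library and 2 in every library.

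Set within each library, the epithelial pair was unequal to a different degree in the groups. EPCAM exceeded CDH1 by a factor of 332 and 235 in sh-MFAP2 replicates 1 and 2 and by 154 and 184 in control replicates 1 and 2. The ratio was thus higher in each sh-MFAP2 library than in either control, while EPCAM itself overlapped between the groups. Such a ratio is free of the scaling of a library, but it was not tested. With EPCAM nearly level, it mostly restates the levels of CDH1.

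CDH1 was also a minor cadherin of these cells. Cadherins are the calcium-dependent adhesion proteins of the cell surface, and 23 genes named CDH with a number were listed, of which 8 were at 0 in all libraries and 2 reached a mean of 1 FPKM. These counts and the genes named next were chosen after their values were seen. CDH17, the liver-intestine cadherin of the gut epithelium, was at 25.3 FPKM in sh-MFAP2 replicate 1, 36.1 in sh-MFAP2 replicate 2, 36.7 in control replicate 1 and 43.1 in control replicate 2, and made up 80.5% of the summed cadherin means. CDH24 had a mean of 6.96 FPKM (15.9% of the sum) and CDH1 took 2.19%. The order of CDH17, CDH24 and CDH1 was the same in every library, with no overlap among them.

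**Figure D2:**
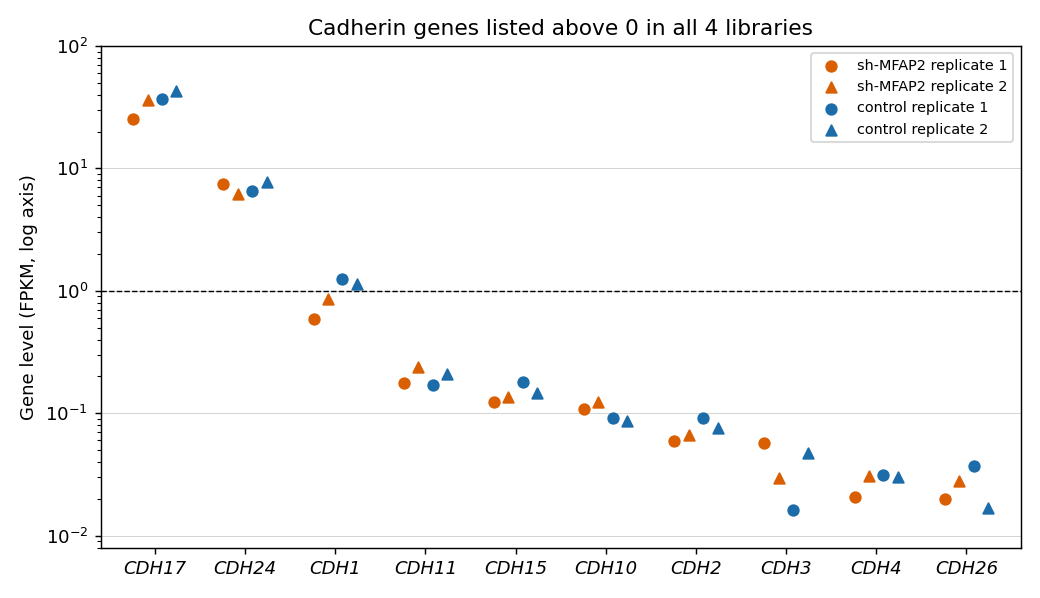
Level in FPKM (log axis) of the cadherin genes listed above 0 in all 4 libraries, ordered by mean, with sh-MFAP2 in orange and controls in blue, and circles and triangles for replicates 1 and 2. CDH17 and CDH24 lie above the dashed line at 1 FPKM in every library, CDH1 falls on either side of it, and CDH2 lies at 0.0592 to 0.0923 FPKM.

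CDH2 encodes N-cadherin, the cadherin of neurons and mesenchymal cells that replaces E-cadherin in the classical cadherin switch, and it was barely detected. It maps to the minus strand of chromosome 18 (27950966 to 28177446). CDH2 stood at 0.0592 FPKM in sh-MFAP2 replicate 1, 0.0664 in sh-MFAP2 replicate 2, 0.0923 in control replicate 1 and 0.0756 in control replicate 2. Neither sh-MFAP2 library reached the lower control, on only 17.9 to 28.0 implied reads per library. In the fit without a minimum level its log2 fold change was -0.03 (limma, Benjamini-Hochberg adjusted p = 0.711). CDH1 exceeded CDH2 in each library, by a factor of 9.86 and 12.8 with sh-MFAP2 and of 13.6 and 15.2 in the controls. CDH2 was not above CDH1 in any library, and at so few reads no direction between the groups is drawn for it. All CDH2 signal was on 1 of its 5 listed transcripts, ENST00000269141, which codes for protein.

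VIM was the highest mesenchymal marker among the 10 genes and the only one of the 10 with both sh-MFAP2 libraries above both controls. It encodes vimentin, the intermediate filament protein of mesenchymal cells, and maps to the plus strand of chromosome 10 (17228259 to 17237593). VIM was at 3.06 FPKM in sh-MFAP2 replicate 1, 2.87 in sh-MFAP2 replicate 2, 2.32 in control replicate 1 and 1.91 in control replicate 2. The groups did not overlap, although the controls differed from each other by more than the sh-MFAP2 libraries did. Means were 2.96 ± 0.140 FPKM (SD, n = 2) with sh-MFAP2 and 2.12 ± 0.295 FPKM (SD, n = 2) in the controls, a ratio of 1.40. The log2 fold change of 0.35 (SE 0.122) had an unadjusted limma p of 0.0490 and a Benjamini-Hochberg adjusted p of 0.404, so VIM did not pass the test. Over the alternatives its log2 fold change ran from 0.25 to 0.47 and its limma adjusted p from 0.283 to 0.918.

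Nearly all VIM signal lay on the coding transcript ENST00000224237 of 1868 bases, with 98.7% to 99.5% of the total. That transcript was at 5.71 FPKM in sh-MFAP2 replicate 1, 5.31 in sh-MFAP2 replicate 2, 4.32 in control replicate 1 and 3.53 in control replicate 2 (limma log2 fold change 0.41, Benjamini-Hochberg adjusted p = 0.688). The gene value was scaled to an implied length of 3500 bases, which places it below the transcript value. On the level of transcripts, VIM thus overlapped with SNAI1 (5.32 to 9.89 FPKM), whereas on the level of genes the 2 were apart. VIM-AS1, an RNA from the opposite strand that shares exon bases with VIM, stood at 0.283 and 0.0970 FPKM with sh-MFAP2, against 0.0128 and 0.0103 FPKM in controls. Whether counting used strand is not given in the sources used here, and without it the reads of this pair cannot be told apart where they overlap.

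Relative to CDH1, VIM was higher in the sh-MFAP2 libraries. VIM exceeded CDH1 by a factor of 5.24 and 3.36 in sh-MFAP2 replicates 1 and 2 and of 1.86 and 1.66 in control replicates 1 and 2. EPCAM exceeded VIM by a factor of 63.3 and 70.1 with sh-MFAP2 and of 83.0 and 110 in control replicates 1 and 2. In either ratio the groups were apart. For VIM over CDH1 this follows from the levels above, where VIM was higher and CDH1 lower without overlap. EPCAM was nearly level, so its ratio to VIM mostly restates VIM. Neither ratio is a further result, and neither was tested.

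FN1, the gene of fibronectin, a matrix glycoprotein bound by integrins, was the lowest gene above 0 by FPKM per gene. It maps to the minus strand of chromosome 2 (215360440 to 215436172). FN1 was at 0.0181 FPKM in sh-MFAP2 replicate 1, 0.0298 in sh-MFAP2 replicate 2, 0.0348 in control replicate 1 and 0.0298 in control replicate 2, and the groups overlapped. The values correspond to between 19.1 and 38.6 implied reads per library, in each library more than for CDH2 (17.9 to 28.0). The place of FN1 below CDH2 thus rests on its implied length of 17315 bases, against 4950 for CDH2. Of 27 listed transcripts 8 were above 0 in some library, and the leading one differed between libraries. A retained-intron transcript, ENST00000492816, took 72.5% of the signal in sh-MFAP2 replicate 1 and 65.5% in control replicate 1, while coding transcripts led in sh-MFAP2 replicate 2 (ENST00000354785, 79.5%) and in control replicate 2 (ENST00000421182, 48.5%). A difference in FN1 between the groups was not detectable at this depth.

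**Figure D3:**
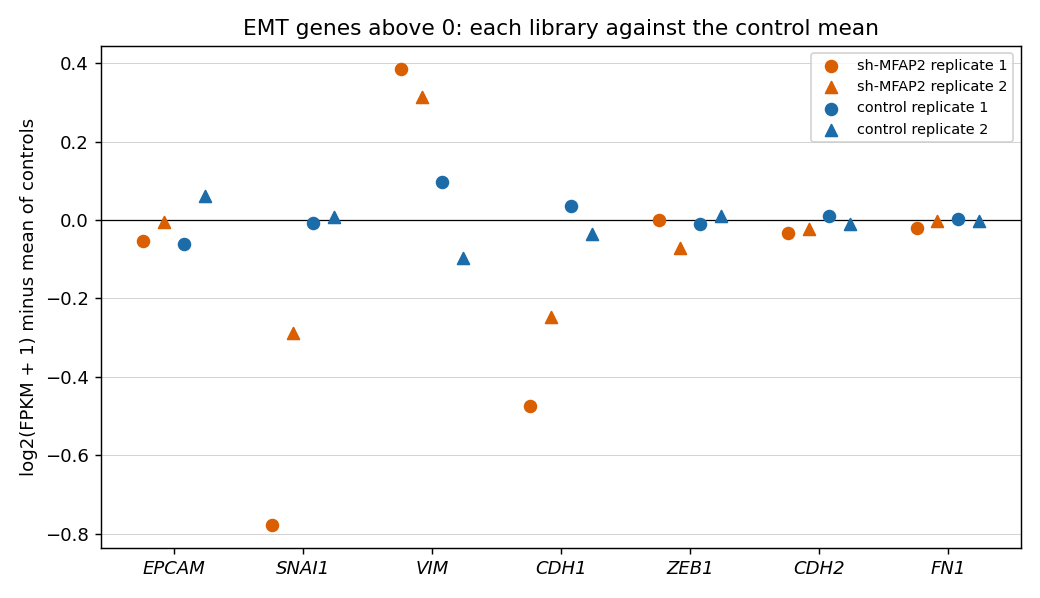
Difference of log2(FPKM + 1) from the mean of the controls for the 7 EMT genes above 0, by library, with sh-MFAP2 in orange, controls in blue, and circles and triangles for replicates 1 and 2. Both orange points of SNAI1 and CDH1 lie below both blue points and both of VIM lie above them, while the small differences of ZEB1, CDH2 and FN1 are compressed by the added 1.

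Among the transcription factors, SNAI1 alone was clearly expressed, and it was lower in both sh-MFAP2 libraries. SNAI1 encodes the zinc finger protein Snail, a direct repressor of CDH1, and maps to the plus strand of chromosome 20 (49982999 to 49988886). Its level was 5.32 FPKM in sh-MFAP2 replicate 1, 7.88 in sh-MFAP2 replicate 2, 9.78 in control replicate 1 and 9.89 in control replicate 2. The controls nearly coincided, and the sh-MFAP2 libraries were below them and apart from each other. Means were 6.60 ± 1.81 FPKM (SD, n = 2) with sh-MFAP2 and 9.84 ± 0.0739 FPKM (SD, n = 2) in the controls, a ratio of 0.671. The log2 fold change of -0.53 (SE 0.203) did not pass the test (limma, Benjamini-Hochberg adjusted p = 0.415, and 0.173 to 0.918 over the alternatives). It was -0.29 without sh-MFAP2 replicate 1 and -0.78 without sh-MFAP2 replicate 2. SNAI1 has a single listed transcript, ENST00000244050 of 1686 bases, and its values rest on 546.5 to 1247.1 implied reads.

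SNAI1 and CDH1, the repressor and its textbook target, were both lower in the sh-MFAP2 libraries, neither passing the test. Their ratio within a library ranged less than the other ratios given here. SNAI1 exceeded CDH1 by a factor of 9.11 and 9.24 in sh-MFAP2 replicates 1 and 2. In control replicates 1 and 2 the factors were 7.81 and 8.63. The groups were apart in this ratio, which was not tested. By level 48.9% of all genes tested were apart, but that is a share of single genes and no background for a ratio. In both genes sh-MFAP2 replicate 1 was the lowest library and sh-MFAP2 replicate 2 lay between it and the controls. With 4 libraries no correlation is given.

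ZEB1, a zinc finger and homeobox repressor of epithelial genes, was close to the limit of detection. It maps to the plus strand of chromosome 10 (31318495 to 31529814). ZEB1 was at 0.0893 FPKM in sh-MFAP2 replicate 1, 0.0372 in sh-MFAP2 replicate 2, 0.0825 in control replicate 1 and 0.0974 in control replicate 2, and the groups overlapped. These values correspond to 47.0, 17.6, 42.2 and 63.0 implied reads. Of its 24 listed transcripts 5 were above 0 in some library and none was in every library, so that the ZEB1 isoform cannot be named from these data. The antisense RNA ZEB1-AS1, which shares exon bases with ZEB1, was above ZEB1 in each library, at 0.309 and 0.223 FPKM with sh-MFAP2, against 0.0964 and 0.144 FPKM in controls. How much of the ZEB1 value came from reads of its antisense partner was not tested.

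E-box sequences of the kind bound by SNAI and ZEB proteins (CACCTG, which reads CAGGTG on the other strand, so that one match covers both strands) were looked for in RefSeq promoter windows of GRCh38.p14, each from 250 bases before to 50 bases after a start. The table held 12 windows for 5 of the 10 genes (CDH2, VIM, FN1, ZEB1 and ZEB2). Of these, 2 windows held the motif, both among the 7 of ZEB1, against 7231 of all 35116 windows (20.6%). The 250 bases before the start of VIM, the gene higher with sh-MFAP2, and before the most upstream listed start of ZEB1 are shown for comparison, 5′ to 3′ on the plus strand, with the E-box in capitals. The VIM stretch is at chr10:17227991-17228240 and holds no such motif. The ZEB1 stretch is at chr10:31318167-31318416 and holds it at position -57, where -1 is the base just before the start.
VIM: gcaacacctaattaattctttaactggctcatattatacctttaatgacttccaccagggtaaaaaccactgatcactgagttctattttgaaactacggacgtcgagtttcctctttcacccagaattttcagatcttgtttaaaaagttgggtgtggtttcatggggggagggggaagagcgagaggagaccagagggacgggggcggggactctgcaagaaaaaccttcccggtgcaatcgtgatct
ZEB1: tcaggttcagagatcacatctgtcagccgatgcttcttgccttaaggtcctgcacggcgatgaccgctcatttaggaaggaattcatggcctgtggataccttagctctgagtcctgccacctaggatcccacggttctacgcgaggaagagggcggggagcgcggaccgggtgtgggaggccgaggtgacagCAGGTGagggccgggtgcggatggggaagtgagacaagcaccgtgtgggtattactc
A match of these letters is a description of the sequence and not a bound site.

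The remaining factors were listed at 0 throughout. They are SNAI2, or Slug (chromosome 8, 48917604 to 48921740, minus strand), ZEB2 (chromosome 2, 144364364 to 144524583, minus strand) and TWIST1 (chromosome 7, 19020991 to 19117672, minus strand). Their 2, 31 and 1 listed transcripts were at 0 as well. A value of 0 in these tables may not mean an absence of reads. Of the genes tested, 203 of 9873 had 1 library under 10% of another that reached 5 FPKM, 64 of them with a single exon, whereas 137 of all genes tested have a single exon. SNAI2, ZEB2 and TWIST1 have transcripts of up to 3, 11 and 4 exons and were at 0 in every library. These counts therefore do not cover their case, and what their 0 means was not tested. No fold change is given for these factors.

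Read together over the comparison of sh-MFAP2 with control, 3 of the 10 genes reached the mean of 1 FPKM needed for testing (EPCAM, SNAI1 and VIM). None of the 3 was a differentially expressed gene (DEG: limma p under 0.01 and Benjamini-Hochberg adjusted p under 0.05), where 27 of 9873 genes tested were (0.273%). At an unadjusted limma p under 0.05, 1 of the 3 was higher with sh-MFAP2 (VIM; 3.89% of all genes tested) and none was lower (8.41% of all genes tested). The groups did not overlap for VIM, higher with sh-MFAP2 (17.5% of all genes tested), or for SNAI1, lower (31.4% of all genes tested). Of the 7 genes above 0, 1 was higher without overlap (VIM; 16.0% of 23806 genes above 0 in a library) and 3 were lower (CDH1, SNAI1 and CDH2, the last on 17.9 to 28.0 implied reads; 21.2% of them). No transcript of the 10 genes was a DEG, nor was any of the 22312 transcripts tested (0%), of which 1704 had an unadjusted limma p under 0.05. Scaling by median of ratios moved the share of all tested genes apart and higher from 17.5% to 24.1% and apart and lower from 31.4% to 24.8%, and under it VIM was still above and CDH1, CDH2 and SNAI1 still below without overlap.

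The partners and regulators of these markers were followed in 6 lists by role, 110 genes in all, of which 71 were tested. No gene of the lists was a DEG, and the smallest Benjamini-Hochberg adjusted limma p was 0.150. At an unadjusted limma p under 0.05, 1 of the 71 was higher with sh-MFAP2 (3.89% of all genes tested) and 11 were lower (8.41% of all genes tested), FOXC1, listed at 0 in one group, among the 11. The groups were apart for 7 genes that were higher (17.5% of all genes tested) and 32 that were lower (31.4% of them). By list, the lower ones were 5 of 15 junction partners, 8 of 12 epithelial regulators and 2 of 7 other EMT transcription factors. They were also 4 of 6 other mesenchymal markers, 3 of 11 genes of TGF-beta input and 10 of 20 co-repressors. The higher ones were 2, 1, 1, 2, 0 and 1 in the same order. After scaling by median of ratios the totals were 11 higher (24.1% of all genes tested) and 26 lower (24.8% of them). Of all genes tested 58.0% had a negative log2 fold change, or 49.2% after that scaling. The median log2 fold change of the tested list genes was -0.14, beside -0.05 over all genes tested, and after scaling by median of ratios it was -0.08 beside 0.01.

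Of 18 junction partners of the epithelial markers 15 were tested, 6 with a positive and 9 with a negative log2 fold change (58.0% of all genes tested were negative), and 2 were lower at an unadjusted limma p under 0.05 (8.41% of all genes tested). The median was -0.01, but -0.26 among those whose mean reached 5 FPKM and 0.0932 without sh-MFAP2 replicate 2. CTNND1, the p120 catenin that binds E-cadherin and holds it at the surface, was at 9.97 FPKM in sh-MFAP2 replicate 1, 8.33 in sh-MFAP2 replicate 2, 15.5 in control replicate 1 and 16.3 in control replicate 2 (limma log2 fold change -0.74, Benjamini-Hochberg adjusted p = 0.302). CLDN7, a claudin that complexes with EPCAM, was at 26.0 and 34.2 FPKM with sh-MFAP2, against 46.1 and 48.2 FPKM in controls (limma log2 fold change -0.64, adjusted p = 0.371). In both genes, named for their unadjusted p, the groups were apart. Of the 15 tested, 5 were lower without overlap (31.4% of all genes tested). Another 2 were higher without overlap (17.5% of all genes tested). The most abundant partners, TSPAN8 (145 to 197 FPKM), CD9 (99.1 to 124 FPKM) and JUP (79.2 to 103 FPKM), had log2 fold changes of 0.23, -0.01 and 0.17.

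Of 15 regulators that maintain the epithelial state 12 were tested, 10 of them at a negative log2 fold change (58.0% of all genes tested were) and none at an unadjusted limma p under 0.05. The median was -0.14, beside -0.05 over all genes tested, and -0.0654 under quantile normalization. ESRP1, a splicing factor of epithelial cells, was at 21.1 and 22.8 FPKM with sh-MFAP2, against 26.2 and 27.3 FPKM in controls (limma log2 fold change -0.28, Benjamini-Hochberg adjusted p = 0.415). Its groups were apart, as they were, in the lower direction, for 31.4% of all genes tested. KLF5 was at 10.5 FPKM in sh-MFAP2 replicate 1 alone and at 40.0 to 45.1 FPKM in the others. ELF3 lay between 24.4 and 26.9 FPKM in all 4 libraries.

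The other EMT transcription factors numbered 17, with 7 tested and 3 listed at 0. SOX9 (29.9 to 37.2 FPKM), FOXQ1 (26.3 to 39.7 FPKM) and TCF3 (20.1 to 21.5 FPKM) were the most abundant, and each was above SNAI1. The list median was -0.24, and -0.03 without FOXC1 and SOX4, an alternative chosen after seeing the data. FOXC1, with 1 exon, stood at 0 in both sh-MFAP2 libraries and at 61.3 and 6.12 FPKM in control replicates 1 and 2, and SOX4, also with 1 exon, was listed at 0 in sh-MFAP2 replicate 2 and control replicate 1.

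Mesenchymal markers beyond the 10 genes lay on either side. Of 24 genes 6 were tested, with a median log2 fold change of -0.62 (-0.0018 with no minimum level, where most were near 0), and at an unadjusted limma p under 0.05 1 was higher (3.89% of all genes tested) and 3 were lower (8.41% of all genes tested). ACTA2, the smooth muscle actin, was at 2.55 and 2.62 FPKM with sh-MFAP2, against 1.24 and 1.28 FPKM in controls (limma log2 fold change 0.67, Benjamini-Hochberg adjusted p = 0.238). PDGFRA, a receptor tyrosine kinase of mesenchymal cells, was at 2.47 and 2.43 FPKM with sh-MFAP2, against 5.17 and 5.27 FPKM in controls (limma log2 fold change -0.85, adjusted p = 0.150). COL1A1, a chain of type I collagen, was at 2.27 and 2.07 FPKM with sh-MFAP2, against 4.36 and 4.92 FPKM in controls (limma log2 fold change -0.83, adjusted p = 0.221), while its partner chain COL1A2 was at 0.00303 FPKM or listed at 0. S100A4, a calcium-binding protein linked to motility, was at 82.6 and 79.7 FPKM with sh-MFAP2, against 118 and 109 FPKM in controls (limma log2 fold change -0.48, adjusted p = 0.346). CALD1 lay between 7.23 and 17.3 FPKM and TAGLN between 48.6 and 62.3 FPKM, with log2 fold changes of -0.76 and 0.18.

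TGF-beta is a classical inducer of SNAI and ZEB genes, and of 14 genes of its input 11 were tested (median log2 fold change -0.11, but 0.38 among those with a mean of at least 5 FPKM), 2 of them lower at an unadjusted limma p under 0.05 (8.41% of all genes tested). TGFBR3, the co-receptor betaglycan, was at 1.04 and 1.14 FPKM with sh-MFAP2, against 2.92 and 2.74 FPKM in controls (limma log2 fold change -0.87, Benjamini-Hochberg adjusted p = 0.162). TGIF1, a repressor of SMAD-driven transcription, was at 2.86 and 3.81 FPKM with sh-MFAP2, against 5.33 and 5.75 FPKM in controls (limma log2 fold change -0.60, adjusted p = 0.363). Of the most abundant genes, TGFB1 was lower in control replicate 2 (15.2 FPKM) than in the other libraries (30.9 to 32.7 FPKM), TGFBR2 was higher in sh-MFAP2 replicate 1 (13.1 FPKM) than elsewhere (3.50 to 6.01 FPKM), and SKIL ran from 17.2 to 21.2 FPKM. The median of 0.38 lay between the log2 fold changes of TGFBR2 (0.26) and TGFB1 (0.50), so it depends on these single outlying libraries.

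Co-repressors of SNAI1 and proteins that set its stability were the best covered list, with 20 of 22 genes tested, 5 at a positive and 15 at a negative log2 fold change (58.0% of all genes tested were negative). The median was -0.16, and -0.0834 under quantile normalization and -0.0932 under median of ratios. At an unadjusted limma p under 0.05, 3 were lower (8.41% of all genes tested). SUZ12, a subunit of the polycomb complex that Snail can recruit, was at 7.46 and 8.22 FPKM with sh-MFAP2, against 10.8 and 12.0 FPKM in controls (limma log2 fold change -0.49, Benjamini-Hochberg adjusted p = 0.352). FBXO11, a ubiquitin ligase subunit that marks Snail for degradation, was at 4.44 and 4.82 FPKM with sh-MFAP2, against 6.39 and 6.59 FPKM in controls (limma log2 fold change -0.41, adjusted p = 0.360). RCOR1, the CoREST scaffold, had a log2 fold change of -0.31 (limma adjusted p = 0.399), and ID1, HDAC1 and EZH2, the most abundant of the list, had values of -0.38, -0.11 and -0.16.

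**Figure D4:**
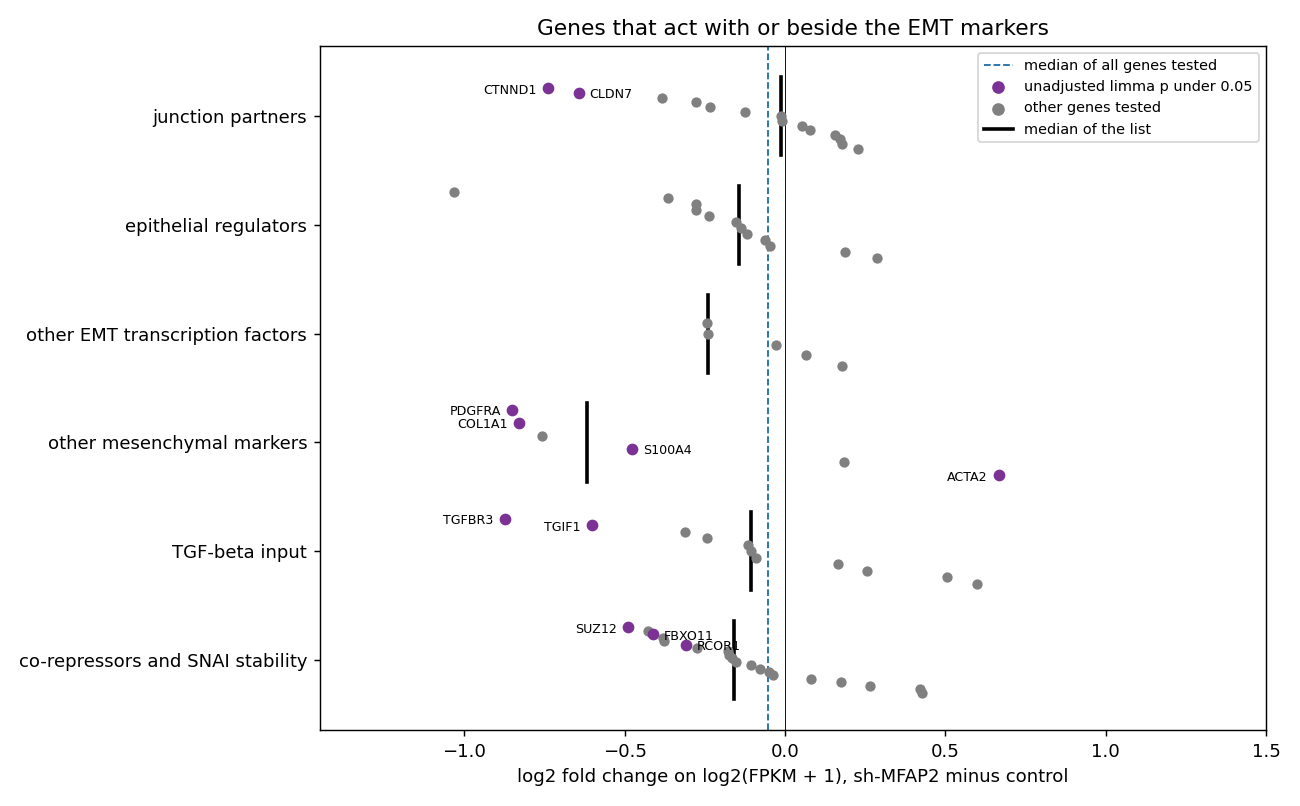
Log2 fold change on log2(FPKM + 1), sh-MFAP2 minus control, of the tested genes of the 6 role lists, with the median of each list as a black bar and the median of all genes tested (-0.05) as a dashed line; purple marks an unadjusted limma p under 0.05, and 3 genes listed at 0 in some libraries and high in others count in the medians but are not drawn. ACTA2 is the one purple point to the right of 0.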

How the data were processed

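RNA of 4 AGS libraries was sequenced after TRIzol extraction and a standard Illumina preparation. The authors deposited 1 table of 47251 genes and 1 of 180500 transcripts, whose values were taken as FPKM from their steps and totals, since the tables do not name the unit. Deposited transcript lengths were read as bases. The build is hg38 in the submitters' processing notes, and the aligner, the estimating program and the use of strand are not given in the sources used here. The study's methods name a random variance model on log2 values, for which limma was used here as a model of the same kind. All sample columns were mapped by title.

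The main model was limma 3.58.1 under R 4.3.3 (lmFit, eBayes with trend), fitted to log2(FPKM + 1) of every gene whose mean reached 1 FPKM, and it was also tested on simulated data. A fold change on that scale understates the change of low genes. Python 3.11.15, pandas 2.3.3, numpy 2.4.6 and matplotlib 3.10.9 were used. Coordinates, exons and overlaps came from GENCODE 29, which held 43715 of the identifiers (92.5%). Implied reads came from the spacing of low values among features of 1 transcript, and 64.2% to 66.1% of low values lay within 0.05 of a whole step, so reads were not recovered and no count test was run. Intervals for single values cannot be given.

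The 10 genes, the role lists and the tests were chosen with earlier results of these data known. Named were the 10 genes, MFAP2, the 3 highest genes of each list, list genes with an unadjusted p under 0.05, and transcripts with a mean of at least 1 FPKM or, failing that, the leading one. Of the junction partners 5 were matched by older symbols. Alternatives were no minimum, a mean of 5 FPKM, a pseudocount of 0.1, quantile normalization, median of ratios, the replicate block, no trend, sums of transcripts, an unadjusted threshold and leaving out each library. List genes outside this rule are given in counts and medians, and 1 list gene was left out of the text.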

Additional observations from a re-analysis of the deposited data

How the results depend on the processing

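None of the EMT genes tested in an alternative, 2 to 7 of the 10, was called in any of 12, and no transcript of theirs in 5. SNAI2, ZEB2 and TWIST1 were never tested, CDH2, FN1 and ZEB1 only with no minimum. The order of gene levels kept 5 pairs apart in all 5 alternatives, whereas SNAI1 and VIM overlapped on their transcripts. None of these alternatives changed the gene lengths. CDH2 lay above FN1 with fewer implied reads in each library, so that step of the order rests on their implied lengths (4950 and 17315 bases). EPCAM alone turned sign, to 0.0418 under scaling by median of ratios and to 0.0323 without control replicate 2 (-0.0922 without control replicate 1), with adjusted p of 0.774 to 0.987 over its fits. The count of EMT genes apart, 2 in the report, was 4 with no minimum (37.2% of all genes tested were apart) and 1 at a mean of 5 FPKM (48.3%), which is set by how many genes were tested, and 2 to 3 with a library left out, where 68.4% to 80.3% of all genes tested were apart.

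The number of DEGs among all genes, 27, was 6 with no minimum, 9 at a mean of 5 FPKM, 0 each time a library was left out (553 to 2145 genes at an unadjusted limma p under 0.05), 1214 at that unadjusted threshold alone and 22 to 28 otherwise. Under the replicate block it was 0 (limma, 722 at an unadjusted p under 0.05). Taken across all 9873 genes, libraries with the same number did not deviate together (r = -0.0572). The labels give only the number. Whether such libraries share a culture or batch that affects some genes was not tested. With a library left out, the lone library of its group was assumed to vary like the other group. The causes were not tested.

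List medians moved as follows. At a mean of 5 FPKM they were -0.26 for junction partners, -0.24 for epithelial regulators, -0.027 for the other EMT transcription factors, -0.48 for the other mesenchymal markers and 0.38 for TGF-beta input. With no minimum they were -0.0232 for the other EMT transcription factors and -0.0018 for the other mesenchymal markers, where more low genes were tested. Under quantile normalization and median of ratios they were -0.0654 and -0.0898 for epithelial regulators and -0.0834 and -0.0932 for co-repressors. Without FOXC1 and SOX4, an alternative chosen after seeing the data, the transcription factor median was -0.027. With a library left out the medians ran from -0.11 to 0.0932 (junction partners), -0.18 to -0.10 (epithelial regulators), -0.22 to 0.0215 (transcription factors), -0.63 to -0.44 (mesenchymal markers), -0.18 to 0.01 (TGF-beta input) and -0.14 to -0.082 (co-repressors). With 2 libraries a group, ZEB1, CDH2 and FN1 were too low for a direction to be drawn.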

Other observations

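MUC1, an epithelial mucin on the list of cell type markers, was at 16.2 FPKM in sh-MFAP2 replicate 1, 13.8 in sh-MFAP2 replicate 2, 6.26 in control replicate 1 and 6.25 in control replicate 2 (limma log2 fold change 1.14, Benjamini-Hochberg adjusted p = 0.145). It was thus higher in both sh-MFAP2 libraries, whereas CDH1 was lower and EPCAM overlapped. LYZ, the lysozyme gene, was at 85.5 FPKM in sh-MFAP2 replicate 1, 579 in sh-MFAP2 replicate 2, 89.3 in control replicate 1 and 369 in control replicate 2. It thus went with the replicate number, higher in both libraries numbered 2 than in both numbered 1, and a shared batch was not tested. PTPRC, the leukocyte surface marker, was at 0.0175 FPKM or lower.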
